A study of Mus musculus with 10 samples.

Results

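Genes that slow or drive the G1 phase of the cell cycle were followed across the endocrine path of the fetal mouse pancreas. They are Gadd45a, Gadd45g, Cdkn1a, Cdkn1b, Cdkn1c, Btg2, Ccnd1, Ccnd2 and Ccnd3, 9 of the 27716 genes listed in every matrix, and they were chosen by symbol. Each was read in ductal-like cells, in Ngn3+-like endocrine progenitors, in Fev+-like cells and in hormone-expressing cells, at 3 embryonic stages, and in cycling and resting cells.

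The data are single-cell RNA-seq counts of unique molecular identifiers (UMIs) from 8 independent libraries, each a pool of dissociated pancreata. Swiss Webster embryos gave 4 libraries of all live cells with version 1 chemistry (v1), at E12.5 (batch 2), at E14.5 (batches 1 and 2) and at E17.5 (batch 2). They also gave 3 libraries of live CD140a- cells made with version 2 chemistry (v2), 1 for each of the same stages, the last of them run in 2 wells that were summed here. The eighth library (Fev-Cre E14.5, version 2) came from Fev-Cre;ROSA26mTmG embryos, in which a Fev-driven Cre switches the membrane reporter from tdTomato to GFP, and in which live GFP+ and tdTomato+ cells were collected. Dissociation lasted 10 min at E12.5, 15 min at E14.5 and 30 min at E17.5, so its length cannot be told apart from stage. The p-values below measure the spread between these pooled libraries.

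Progenitors of the pancreatic duct divide, and those that switch on Neurog3 leave the cell cycle as they become endocrine. Cyclins D1, D2 and D3, encoded by Ccnd1, Ccnd2 and Ccnd3, bind CDK4 and CDK6 and carry cells through G1. The Cip/Kip inhibitors p21 (Cdkn1a), p27 (Cdkn1b) and p57 (Cdkn1c, an imprinted gene expressed from the maternal copy) bind cyclin and CDK complexes and can halt the cycle. GADD45 proteins are small stress-induced regulators that bind p21, PCNA and CDK1, and BTG2 is an antiproliferative protein of the BTG/TOB family. Gadd45a, Cdkn1a and Btg2 are textbook targets of p53, while Gadd45g is known for its expression downstream of proneural factors.

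On mm10 (GRCm38, GENCODE vM21 gene models, all protein coding) Gadd45a lies at chr6:67035096-67037457 and Gadd45g at chr13:51846678-51848468. The inhibitors lie at chr17:29090976-29100727 (Cdkn1a), chr6:134920401-134925513 (Cdkn1b) and chr7:143458339-143461050 (Cdkn1c), and Btg2 at chr1:134075170-134079120. The cyclins lie at chr7:144929931-144939925 (Ccnd1), chr6:127125162-127152193 (Ccnd2) and chr17:47505051-47599691 (Ccnd3).

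The promoters of the 4 members with their highest mean level in Ngn3+-like cells, among 6 classes that leave out the epsilon-like cells (found in 2 libraries and higher still in Cdkn1a), are shown because these genes moved together on entry into that class. Each line gives the 250 bases before a RefSeq start site on GRCm38.p6, written 5′ to 3′ on the strand of the gene, and capitals mark matches to 3 motifs.
Gadd45a, chr6:67037408-67037657, minus strand: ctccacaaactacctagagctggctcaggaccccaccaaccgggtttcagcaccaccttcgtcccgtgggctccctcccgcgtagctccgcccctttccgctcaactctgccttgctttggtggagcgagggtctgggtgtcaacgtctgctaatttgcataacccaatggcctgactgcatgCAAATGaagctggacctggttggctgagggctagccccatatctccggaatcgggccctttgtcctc
Gadd45g, chr13:51846425-51846674, plus strand: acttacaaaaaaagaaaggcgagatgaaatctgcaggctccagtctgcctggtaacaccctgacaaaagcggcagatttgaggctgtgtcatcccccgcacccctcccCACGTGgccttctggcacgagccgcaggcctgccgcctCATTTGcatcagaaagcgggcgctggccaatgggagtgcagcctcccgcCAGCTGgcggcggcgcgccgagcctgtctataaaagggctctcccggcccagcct
Cdkn1a start site 1, chr17:29090729-29090978, plus strand: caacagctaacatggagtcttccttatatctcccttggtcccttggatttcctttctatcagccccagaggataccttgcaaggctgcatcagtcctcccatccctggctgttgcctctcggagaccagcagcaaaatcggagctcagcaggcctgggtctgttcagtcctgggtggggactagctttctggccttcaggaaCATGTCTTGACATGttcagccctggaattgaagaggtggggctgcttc
Cdkn1a start site 2, chr17:29093519-29093768, plus strand: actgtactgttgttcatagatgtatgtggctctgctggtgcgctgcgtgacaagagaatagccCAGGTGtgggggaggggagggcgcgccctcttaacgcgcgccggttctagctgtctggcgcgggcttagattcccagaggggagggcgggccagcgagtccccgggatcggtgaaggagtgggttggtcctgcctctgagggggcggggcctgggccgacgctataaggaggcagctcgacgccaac
Btg2, chr1:134079156-134079405, minus strand: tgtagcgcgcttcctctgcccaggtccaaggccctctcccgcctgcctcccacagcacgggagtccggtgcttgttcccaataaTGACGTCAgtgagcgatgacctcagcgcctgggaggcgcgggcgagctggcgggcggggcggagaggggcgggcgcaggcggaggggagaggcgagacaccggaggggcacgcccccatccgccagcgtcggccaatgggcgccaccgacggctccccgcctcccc
The motifs were the E-box CANNTG, to which basic helix-loop-helix factors such as NEUROG3 bind, the core of a p53 site (CATG, any 6 bases and CATG again) and the cAMP response element TGACGTCA. Each reads the same on both strands, and the last pair was chosen after the sequences were read. Gadd45g held 3 E-boxes, 142, 104 and 55 bases before its start. Gadd45a held 1, at 67 bases, and the second Cdkn1a site held 1, at 187 bases. All distances are from the RefSeq starts. The GENCODE model of Gadd45a given above starts inside the printed window, at chr6:67037457. By that model its E-box lies nearer the start, and the end of the window is inside the gene. The first Cdkn1a site held CATGTCTTGACATG 48 bases before its start, a match present in 0.49% of 32851 promoter windows of this length. Btg2 held TGACGTCA at 166 bases, present in 1.55% of windows. An E-box stood in 66.2% of all windows, so its presence is common. The reference held promoters for 6 of the 9 members.

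Cells were clustered within each library without the 9 genes, and clusters were named from marker lists. The classes held 91 to 2322 ductal-like cells in a library, 32 to 572 Ngn3+-like cells (8 libraries), 41 to 542 Fev+-like cells (7 libraries), 43 to 560 alpha-like cells (7 libraries) and 70 to 620 beta-like cells (6 libraries). UMIs were summed per library and class and scaled to CPM (counts relative to all UMIs of the sum). The edgeR log2 differences below also use TMM factors, which rescale the sums. CPM, ratios in single libraries and counts of libraries do not use them, so the 2 kinds of value can differ. A change in such a sum can reflect more cells with the transcript or more transcript per cell, so shares of cells with a UMI are given below for 5 members. Median UMIs per kept cell ran from 2952 to 4332 in v1 libraries and from 7504 to 11783 in v2 and Fev-Cre libraries, and pairs of libraries of the same chemistry shared 0.433% to 1.79% of the barcodes of the smaller one. Own-class markers were present in every class, but 2 sums stood apart in alpha or beta markers. The v2 E17.5 Ngn3+-like cells held beta markers at 64161 CPM, against 386 to 1544 CPM in the other Ngn3+-like sums. The v1 E12.5 Fev+-like cells held alpha markers at 68917 CPM, against 3021 to 9051 CPM in the others. For the comparisons of Ngn3+-like cells with ductal-like and with Fev+-like cells, and of cycling with resting Ngn3+-like cells, results without these libraries are given too. The shares of cells and the correlations are given with them.

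**Figure D1:**
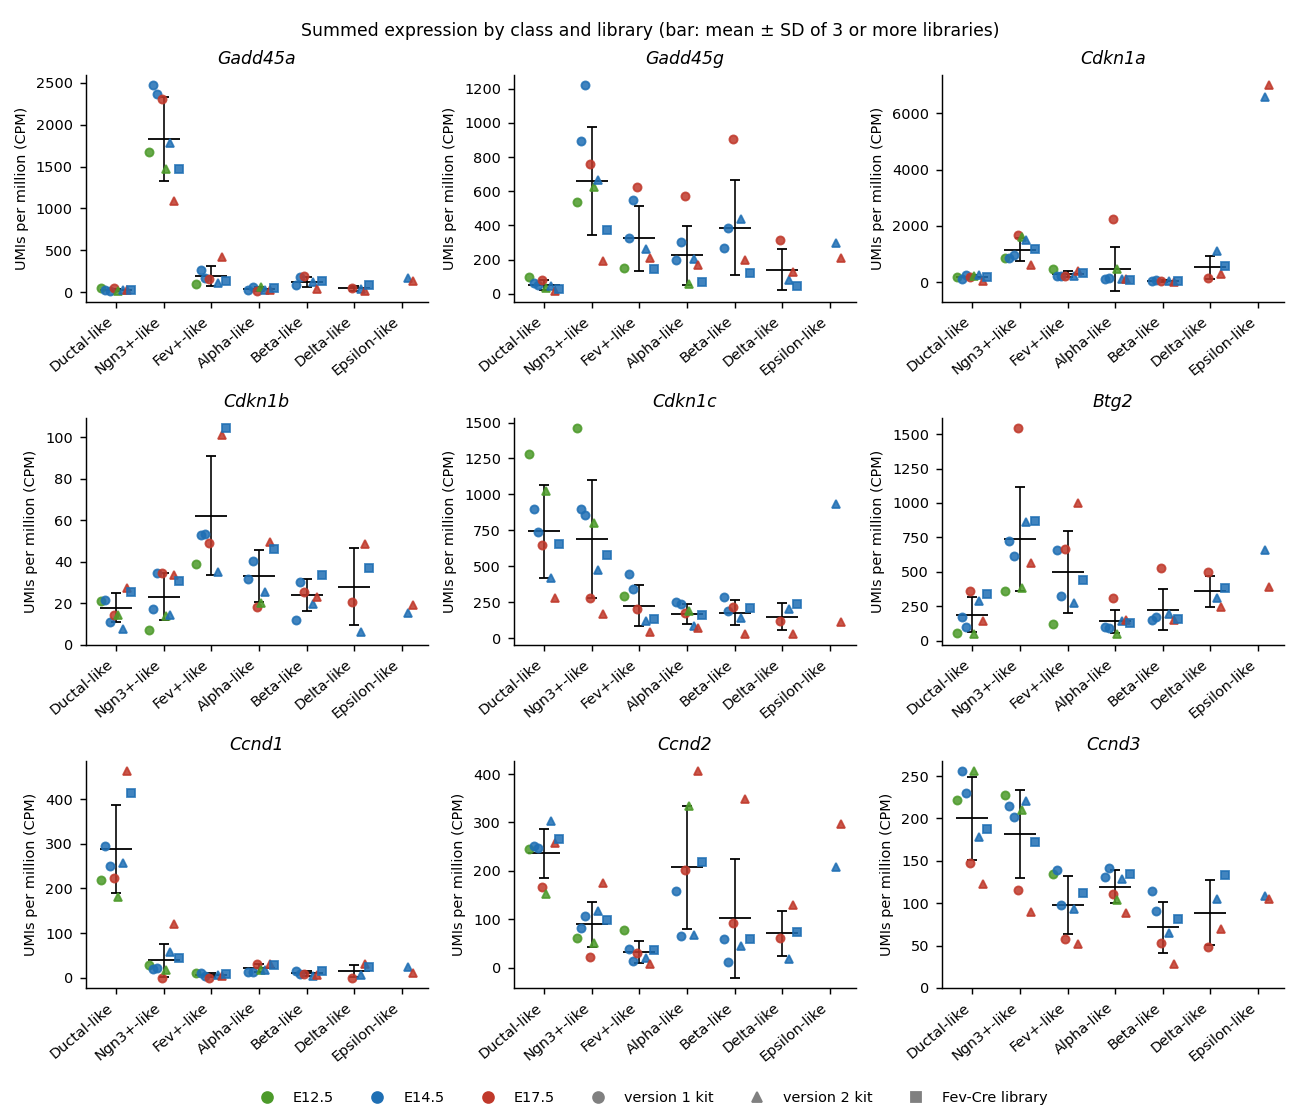
Level of each of the 9 genes in CPM (vertical axes) in the ductal-like, Ngn3+-like, Fev+-like, alpha-like, beta-like, delta-like and epsilon-like classes (horizontal axes). Each point is 1 library (colour, embryonic stage; marker, chemistry) and bars are mean ± SD where 3 or more libraries had the class. Gadd45a in Ngn3+-like cells, 1090.2 to 2473 CPM, stood above every point of the neighbouring classes, and Ccnd1 in ductal-like cells, 182 to 463 CPM, did likewise.

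Of the 9 members, Gadd45a was the one most closely tied to the Ngn3+-like class. By size of the log2 difference it ranked 67 of 9471 genes between Ngn3+-like and ductal-like cells. Between Fev+-like and Ngn3+-like cells it ranked 19 of 4960. Its level was 1090.2 CPM in the lowest, 1729 in the median and 2473 in the highest Ngn3+-like library. In ductal-like cells the same values were 18.1, 26.7 and 54.5 CPM, and the 2 ranges did not overlap. Levels then ran 94.8, 161 and 427 CPM in Fev+-like cells, 39.0, 129 and 196 CPM in beta-like cells and 12.3, 32.9 and 69.2 CPM in alpha-like cells. So the peak lasted for a single class of the path. Counted in cells thinned to 2000 UMIs, 67.3% to 92.8% of Ngn3+-like cells had a Gadd45a UMI, against 3.76% to 10.2% of ductal-like cells. Erythroid-like cells, taken as a background class and absent from the Fev-Cre library, had one in 6.54% to 14.6% of cells. Mesenchymal-like cells had one in 3.89% to 7.02%, and the ductal share overlapped both ranges. Whether erythroid-like cells express Gadd45a was not tested, so background and low ductal expression are not told apart. Without thinning the shares were 82.5% to 94.0% (Ngn3+-like), 9.35% to 24.4% (ductal-like), 23.9% to 44.6% (erythroid-like) and 6.06% to 17.9% (mesenchymal-like). Median UMIs per cell were 2846 to 8666, 4041 to 12536, 4499 to 12976 and 2648 to 5781 in the same order.

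Gadd45g followed a broader course. Its lowest, median and highest levels were 193, 647 and 1223 CPM in Ngn3+-like cells and 14.8, 50.05 and 98.4 CPM in ductal-like cells. In beta-like cells they were 123, 329 and 908 CPM, in Fev+-like cells 148, 262 and 624.6 CPM, and in alpha-like cells 56.4, 199 and 570.1 CPM. It thus stayed detectable in the hormone classes, where all these ranges overlapped. Btg2 gave 359, 668 and 1545 CPM in Ngn3+-like cells, 117, 438 and 998 CPM in Fev+-like cells and 49.8, 158 and 362 CPM in ductal-like cells. Its Ngn3+-like and ductal-like ranges touched, although the gene was higher in Ngn3+-like cells in 8 of 8 libraries. In thinned cells 28.0% to 69.1% of Ngn3+-like cells had a Gadd45g UMI, against 2.89% to 12.9% of ductal-like and 0.739% to 7.63% of erythroid-like cells (60.6% to 83.1%, 10.8% to 19.3% and 3.54% to 16.8% without thinning). For Btg2 the thinned shares were 45.5% to 79.3%, 8.11% to 45.1% and 1.09% to 11.7% (72.7% to 97.3%, 17.6% to 82.5% and 6.13% to 35.7% without thinning).

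Along the path from ductal-like to alpha-like and beta-like cells, the 3 Cip/Kip inhibitors had different peaks. Cdkn1a ran 602, 1075 and 1695 CPM in Ngn3+-like cells, 44.4, 190.3 and 268 CPM in ductal-like cells and 21.3, 38.8 and 76.6 CPM in beta-like cells, where its level was lowest. Thinned shares of cells with a Cdkn1a UMI were 50.5% to 69.2% in Ngn3+-like, 6.47% to 40.6% in ductal-like and 0% to 8.67% in erythroid-like cells (50.9% to 89.8%, 22.7% to 62.0% and 0% to 28.6% without thinning). Cdkn1b was highest in Fev+-like cells, at 34.9, 52.98 and 104.6 CPM, against 6.90, 24.0 and 34.7 CPM in Ngn3+-like cells and 7.67, 17.7 and 27.4 CPM in ductal-like cells. Cdkn1c was highest earlier, at 278, 696 and 1284 CPM in ductal-like cells and 166, 690.4 and 1462 CPM in Ngn3+-like cells, and reached 40.5, 201 and 448 CPM in Fev+-like cells.

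Cdkn1c was also the member with the strongest signal outside the epithelium, with 7442 ± 3298 CPM (SD, n = 7 libraries) in mesenchymal-like cells. Ductal-like cells held 5.57% to 24.9% of the mesenchymal Cdkn1c level, but only 0.385% to 2.33% of the level of the mesenchymal marker genes. Ngn3+-like cells held 2.37% to 27.2% of the mesenchymal Cdkn1c level, next to 0.522% to 9.22% for the markers. The highest of both came from v1 E12.5, the Ngn3+-like sum with the most Cdkn1c (1462 CPM). The part of free RNA in these levels was not tested. In Fev+-like, alpha-like and beta-like cells the Cdkn1c percentages fell to 1.52% to 5.50%, next to 0.264% to 3.66% for the markers. In single sums the gap varied, with Cdkn1c at 1.88% and the markers at 0.264% in beta-like cells at v1 E17.5, but 2.37% and 3.04% in alpha-like cells of the Fev-Cre library.

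The D cyclins separated from each other along the path. Ccnd1 ran 182, 254 and 463 CPM in ductal-like cells, 0, 24.8 and 120.2 CPM in Ngn3+-like cells and 0, 6.35 and 11.2 CPM in Fev+-like cells. In the v1 E17.5 library no Ccnd1 UMI was found among 86741 UMIs of Ngn3+-like cells, which allows up to 34.6 CPM, nor among 224149 UMIs of Fev+-like cells, which allows up to 13.4 CPM (counting error only). Thinned shares of cells with a Ccnd1 UMI were 24.8% to 51.8% in ductal-like, 0% to 8.74% in Ngn3+-like and 0% to 9.18% in erythroid-like cells (41.0% to 90.1%, 0% to 27.1% and 1.77% to 33.7% without thinning), and the last 2 ranges overlapped. Ccnd2 ran 153, 249 and 302 CPM in ductal-like cells, 23.1, 89.6 and 175 CPM in Ngn3+-like cells and 8.43, 31.2 and 78.1 CPM in Fev+-like cells. It was again high in alpha-like cells, at 66.2, 202 and 406 CPM. Ccnd3 changed least, with 123, 205 and 257 CPM in ductal-like, 89.9, 206 and 228 CPM in Ngn3+-like, 52.3, 98.4 and 139.7 CPM in Fev+-like and 27.8, 72.6 and 114 CPM in beta-like cells. Over the 9 genes and 6 classes, epsilon-like cells left out, there were 45 neighbouring pairs in the order of mean levels. Library ranges overlapped in 43 of them, and stood apart in 2, Gadd45a between Ngn3+-like and Fev+-like cells and Ccnd1 between ductal-like and Ngn3+-like cells.

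On the step from ductal-like to Ngn3+-like cells, 4 brakes rose and 2 cyclins fell. Gadd45a rose by 5.86 ± 0.20 on the log2 scale (SE, adjusted p = 4.65e-12, edgeR quasi-likelihood test with Benjamini-Hochberg adjustment, library as block). In single libraries it was 30.8 to 129.9 times the ductal level. That level was not told apart from background, so these ratios may understate the difference. Gadd45g rose by 3.70 ± 0.18 (adjusted p = 2.53e-10), or 5.46 to 23.1 times. Cdkn1a rose by 2.71 ± 0.16 (adjusted p = 1.45e-09), or 3.58 to 13.6 times, and Btg2 by 2.06 ± 0.16 (adjusted p = 5.78e-08), or 2.56 to 7.61 times. All 4 were higher in 8 of 8 libraries. Ccnd1 fell by 2.83 on the log2 scale (SE 0.21, adjusted p = 2.32e-08) and was at most 0.259 times the ductal level in any library. Ccnd2 fell by 1.37 (SE 0.15, adjusted p = 1.32e-06), and both cyclins were lower in 8 of 8 libraries. These 6 of 9 members stood against 57.8% of 9471 genes called in the same comparison, so the count itself is near the background. By direction, 27.2% of genes were called higher and 30.6% lower.

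The remaining 3 did not pass the test on this step. Cdkn1b differed by 0.34 ± 0.19 on the log2 scale (adjusted p = 0.137, higher in 5 of 8 libraries), Cdkn1c by -0.24 ± 0.15 (adjusted p = 0.180, higher in 4 and lower in 4) and Ccnd3 by -0.18 ± 0.10 (adjusted p = 0.128, lower in 6 of 8). Without the v2 E17.5 library the same 6 calls remained, with Gadd45a at 5.94, Gadd45g at 3.73, Cdkn1a at 2.57, Btg2 at 2.09, Ccnd1 at -3.05 and Ccnd2 at -1.52 on the log2 scale.

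Other cell cycle genes were split on this step. Among 10 tested of 15 other brakes, 4 rose and 3 fell. Ccng2 (1.35) and Tob1 (1.34), a relative of Btg2, rose and Gadd45b fell (-1.82 on the log2 scale), opposite to Gadd45a and Gadd45g. Among 19 tested of 20 genes of the cell cycle engine (cyclins, CDKs, E2F and Myc genes), 3 rose and 14 fell, with a median of -1.25 against -0.03 over all genes tested. Some of these genes are also on the S and G2/M lists, and ductal-like cells cycle more. Without genes of those lists 3 rose and 9 fell of 14 (median -1.10), and in resting cells 3 rose and 6 fell of 11 (median -0.72), or 3 and 3 of 8 (median -0.14) without genes of those lists. Cdk1, the mitotic kinase, had a log2 difference of -2.37 and Mycn of -2.96, whereas Mycl had 3.60. Of 11 p53 target genes tested, 6 rose and 3 fell, with a median of 0.66 against -0.03 over all genes tested. Trp53inp1 (1.79) and Bax (0.90) rose and Plk2 (-1.78) and Phlda3 (-2.15) fell, so the list leaned upward without 1 shared direction. In resting cells 4 of 8 other brakes tested rose and 1 fell (median 0.41 against 0.01 over all genes tested), with Cdkn2d, which encodes the CDK4 and CDK6 inhibitor p19, at 1.97, and of 9 p53 targets 3 rose and 2 fell (median 0.11). Immediate early and heat-shock genes, which dissociation can induce, gave 1 higher and 9 lower of 13 tested.

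**Figure D2:**
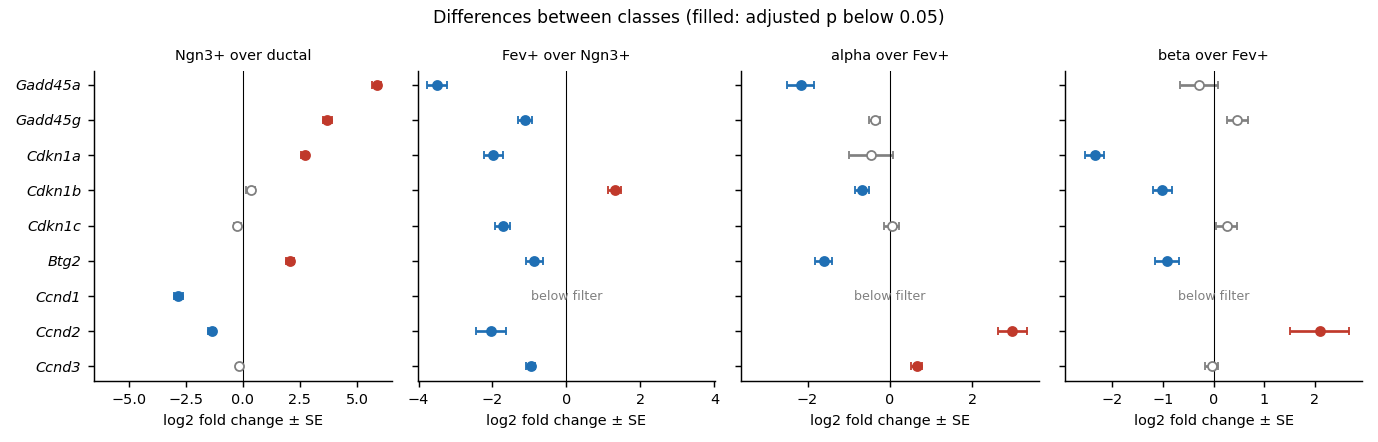
Log2 fold change ± SE (horizontal axes) of each gene (vertical axis) on 4 comparisons, Ngn3+-like over ductal-like, Fev+-like over Ngn3+-like, alpha-like over Fev+-like and beta-like over Fev+-like cells. Filled symbols passed an adjusted p of 0.05, and Ccnd1 lay below the filter on low counts in the last 3. Gadd45a stands at 5.86 on the first comparison and at -3.49 on the second, and Cdkn1b at 1.30 on the second.

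The rise of the 4 brakes was then read in resting cells alone, because Ngn3+-like cells cycle less. A cell was called cycling from its S and G2/M phase UMIs, which include none of the 9 members. The cycling share was 13.6%, 57.3% and 78.3% in the lowest, median and highest ductal-like library and 8.33%, 22.2% and 35.7% in the Ngn3+-like ones, lower in 8 of 8 libraries. In Fev+-like cells it was 0% to 6.59%, in alpha-like cells 0% to 12.8% and in beta-like cells 1.27% to 6%. The shares of 0 had 95% Wilson upper bounds of 8.76% (0 of 40 Fev+-like cells at v1 E12.5), 5.42% (0 of 67 alpha-like cells at v1 E14.5 batch 2) and 10.7% (0 of 32 alpha-like cells at v1 E17.5). Endocrine cells left unnamed cycled at 64.0% (327 of 511) at v2 E14.5 and at 44.3% (270 of 609) at v2 E12.5. In the other libraries that had them they cycled at 0% (0 of 19) to 9.52%. The shares above thus hold for named cells only. Between resting cells the same 6 members passed, against 53.4% of 7529 genes (26.3% higher and 27% lower). Log2 differences were 5.66 ± 0.19 for Gadd45a, 3.27 ± 0.20 for Gadd45g, 2.24 ± 0.21 for Cdkn1a, 1.98 ± 0.16 for Btg2, -2.67 ± 0.19 for Ccnd1 and -1.39 ± 0.18 for Ccnd2. These were close to the values over all cells, and the same 6 passed without the v2 E17.5 library. The resting arms still differed in phase genes. Of 28 S phase genes tested 1 rose and 17 fell (median -0.60 against 0.01 over all genes tested), and of 20 G2/M genes 2 rose and 7 fell (median -0.24). The difference in cycling was therefore not fully removed.

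**Figure D3:**
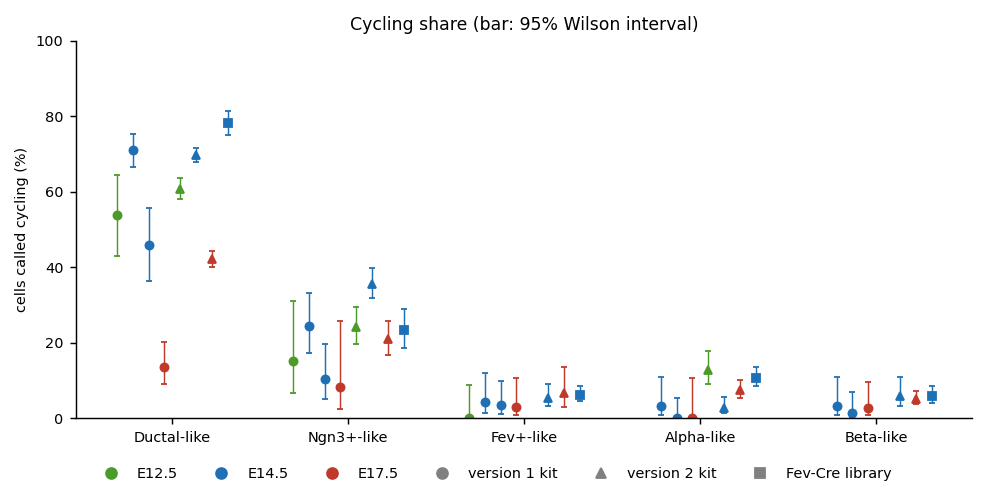
Percentage of cells called cycling (vertical axis, with 95% Wilson intervals that cover counting error only) in each library and class along the path. Ductal-like cells reach 78.3%, Ngn3+-like cells lie between 8.33% and 35.7%, and Fev+-like cells lie at 6.59% or below.

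From Ngn3+-like to Fev+-like cells the pattern turned. All 8 tested members passed, against 32.3% of 4960 genes, and 7 of them fell, against 17.1% of genes called lower and 15.2% called higher. Gadd45a fell by 3.49 on the log2 scale (SE 0.27, adjusted p = 5.51e-06), to a median of 0.0697 times the Ngn3+-like level. Cdkn1a fell by 1.97 (SE 0.25, adjusted p = 0.000108) and Cdkn1c fell by 1.73 (SE 0.21, adjusted p = 8.76e-05), and these 3 genes were lower in 7 of 7 libraries. Gadd45g fell by 1.12 (SE 0.19) and Btg2 fell by 0.87 (SE 0.23, adjusted p = 0.0139), each lower in 6 of 7. Ccnd2 fell by 2.04 (SE 0.42), lower in 5 of 7, and Ccnd3 fell by 0.97 (SE 0.12), lower in 7 of 7.

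Cdkn1b was the exception. It rose by 1.30 ± 0.18 on the log2 scale (adjusted p = 0.000195), to 1.42 to 5.66 times the Ngn3+-like level, in 7 of 7 libraries. The highest ratio came from v1 E12.5, where Ngn3+-like cells held 1 Cdkn1b UMI and the Fev+-like sum is the one with alpha markers. In resting cells Cdkn1b was higher in 6 of 7 libraries with overlapping ranges, the exception being v1 E17.5 (43.5 against 45.5 CPM). Ccnd1 did not pass the filter on low counts. All 8 calls held without the v1 E12.5 library, where Gadd45a was -3.42, Btg2 -0.80 (adjusted p = 0.0337) and Cdkn1b 1.27 on the log2 scale. They also held without the v2 E17.5 library, where these 3 were -3.81, -1.12 and 1.33 on the same scale. In resting cells the same 8 passed, against 30.2% of 4613 genes, and did so without either library, although there the Btg2 call was lost with cells near the cycling threshold left out (-0.74, adjusted p = 0.0924). Over all cells the Gadd45g (-1.06, adjusted p = 0.0714) and Btg2 calls (-0.80, adjusted p = 0.291) were lost with version 2 libraries alone, and the Btg2 call without the block (-0.73, adjusted p = 0.223). The Ccnd2 call was lost with version 1 libraries alone (-1.10, adjusted p = 0.135), at the finer clustering resolution (-0.77, adjusted p = 0.273) and where clusters and tests used separate parts of the counts (-0.69, adjusted p = 0.113).

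Of the other brakes, 2 of 6 tested rose and 2 fell. Cdkn2d rose with Cdkn1b (1.03), and Ccng2 fell (-1.15). All 3 engine genes tested fell, Cdk4 at -1.22, Cks1b at -1.30 and Mycl at -0.96. Of 5 p53 targets, 2 rose, with Sesn2 at 2.29 on the log2 scale, and none fell. Btg2 is itself an immediate early gene, and 6 of 12 genes of the immediate early and heat-shock list rose here while Btg2 fell. The part of these genes' response in the Btg2 value was not tested.

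Alpha-like and beta-like cells were each set against Fev+-like cells over 6 libraries, so the 2 comparisons share the Fev+-like sums. In alpha-like cells 5 of 8 tested members passed, against 22.9% of 5877 genes. Ccnd2 rose by 2.97 ± 0.35 on the log2 scale (adjusted p = 0.000118), to 3.26 to 48.1 times the Fev+-like level in 6 of 6 libraries. The median ratio was 5.45 and the highest came from v2 E17.5 (406 against 8.43 CPM), without which the difference was 2.46. It was 1.72 at the finer resolution and 1.54 where clusters and tests used separate parts of the counts, and it was called in each alternative in which it passed the filter on low counts. Ccnd3 rose by 0.65 ± 0.14 (adjusted p = 0.00577). Gadd45a (-2.17 ± 0.33), Btg2 (-1.61 ± 0.21) and Cdkn1b (-0.69 ± 0.17, adjusted p = 0.0109) fell, each in 6 of 6 libraries. The Cdkn1b call was lost without the Fev-Cre library (-0.52, adjusted p = 0.108), and the Ccnd3 call at the finer resolution (0.37, adjusted p = 0.0551). Both were lost on separate counts (-0.32, adjusted p = 0.466 and 0.10, adjusted p = 0.813). With version 1 libraries alone they were at -0.52 (adjusted p = 0.429) and 0.58 (adjusted p = 0.206), with version 2 alone at -0.80 (adjusted p = 0.0533) and 0.61 (adjusted p = 0.0845), and without the block at -0.62 (adjusted p = 0.320) and 0.62 (adjusted p = 0.0888).

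In beta-like cells 4 of 8 passed, against 33.2% of 5897 genes, a share near the background. Cdkn1a fell by 2.35 on the log2 scale (SE 0.19, adjusted p = 1.56e-05) in 6 of 6 libraries, and Cdkn1b fell by 1.02 (SE 0.19) in 6 of 6. Btg2 fell by 0.92 (SE 0.24, adjusted p = 0.0131). Ccnd2 rose by 2.09 ± 0.59 (adjusted p = 0.0180) in 5 of 6 libraries. In single libraries it was 0.873 to 41.3 times the Fev+-like level, with a median of 1.90, and the highest ratio came from v2 E17.5 (348 against 8.43 CPM). This call was lost with DESeq2 (1.68, adjusted p = 0.0820), with version 1 (1.16, 0.0657) or version 2 libraries alone (2.39, 0.118), at the finer resolution (1.41, 0.147) and on separate counts (0.56, 0.0538). The Cdkn1b call was lost with version 1 libraries alone (-0.90, adjusted p = 0.131) and the Btg2 call with version 2 libraries alone (-1.03, adjusted p = 0.0703), and both without the block (-0.94, adjusted p = 0.0852 and -0.87, adjusted p = 0.187), with differences near those of the fit above. Gadd45a was not called (-0.28 ± 0.38, adjusted p = 0.603, edgeR). Ccnd3 was not called either (-0.04 ± 0.12, adjusted p = 0.851), although its CPM was lower than in Fev+-like cells in 6 of 6 libraries. The same held for Gadd45g (0.47 ± 0.21, adjusted p = 0.101), with CPM higher in 2 and lower in 4 of 6. The fall in Ccnd3 CPM was thus not seen in the log2 difference with TMM factors. In the immediate early and heat-shock list, 11 of 12 genes fell in alpha-like and 6 of 12 in beta-like cells beside the fall of Btg2, and its part in that fall was not tested.

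Set directly against beta-like cells, alpha-like cells differed in 6 of 9 members, against 25.8% of 7070 genes. Gadd45a was lower (log2 difference -1.73 ± 0.18, adjusted p = 5.08e-06), at 0.0625 to 0.683 times the beta-like level in 6 libraries. Thinned shares with a Gadd45a UMI were 1.59% to 11.1% of alpha-like and 8.55% to 30.4% of beta-like cells, against 6.54% to 14.6% of erythroid-like cells (4.65% to 34.5%, 24.3% to 57.9% and 23.9% to 44.6% without thinning). The alpha-like share was not told apart from that of erythroid-like cells, whose own Gadd45a expression was not tested, so these ratios may understate the difference. Gadd45g (-0.88 ± 0.12) and Btg2 (-0.69 ± 0.10) were also lower in 6 of 6. Cdkn1a was higher (1.82 ± 0.44, adjusted p = 0.00664) in 6 of 6 libraries with no overlap of ranges, at 1.37 to 58.8 times the beta-like level with a median of 3.72, Ccnd3 was higher (0.70 ± 0.11) in 6 of 6, and Ccnd1 had higher counts (1.14 ± 0.22) in 5 of 6. Thinned shares of cells with a Ccnd1 UMI (alpha-like 1.49% to 6.70%, beta-like 0.667% to 3.23%) lay within the erythroid-like range of 0% to 9.18% (4.23% to 22.5%, 2% to 10.8% and 1.77% to 33.7% without thinning). These ranges pool libraries and do not set the classes of 1 library side by side. Whether the Ccnd1 difference is one of expression was therefore not settled. The immediate early and heat-shock list moved with Btg2 and both Gadd45 genes, with 10 of 12 genes lower in alpha-like cells. The Cdkn1a difference ran from 0.95 to 3.26 over the alternatives and was called in each. The Gadd45g call was lost with version 1 libraries alone (-0.55, adjusted p = 0.0584), as was that of Ccnd3 (0.59, adjusted p = 0.167), and the Btg2 call without TMM factors (-0.43, adjusted p = 0.0520). Without the block Gadd45g (-0.89, adjusted p = 0.371), Btg2 (-0.80, adjusted p = 0.287) and Ccnd1 (1.06, adjusted p = 0.0836) were not called, with differences near those of the fit above. Ccnd1 fell below the filter on low counts in 6 of 17 alternatives.

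Cdkn1a was far higher in ghrelin cells. Epsilon-like cells, named from ghrelin (Ghrl) and 3 further markers, were found in 2 libraries, and held 6574 CPM of Cdkn1a at v2 E14.5 (65 cells) and 7017 CPM at v2 E17.5 (39 cells). In the same libraries Ngn3+-like cells held 1514 and 602 CPM, and delta-like cells 1103 and 302 CPM. With 2 libraries this difference was not tested. The cycling share of the epsilon-like cells was 16.9% at v2 E14.5 (95% Wilson interval 9.72% to 27.8%) and 2.56% at v2 E17.5 (0.454% to 13.2%).

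At E17.5 the alpha-like clusters with most Cdkn1a were also rich in Ghrl. The v1 E17.5 alpha-like cells (43 cells) held Ghrl at 36355 CPM beside glucagon (Gcg) at 59942 CPM, and Cdkn1a at 2249.6 CPM. At v2 E17.5 a cluster of 87 alpha-like cells held Ghrl at 49059 CPM and Cdkn1a at 315 CPM, against 2317 and 67.9 CPM in the other alpha-like cluster of 361 cells. At the other stages each library had a single alpha-like cluster, so no such contrast within a library could be made. Ghrl and Cdkn1a there were at 3130.5 and 469.6 CPM at v2 E12.5, and at 5841 and 130.1 CPM at v2 E14.5. They were at 2054 and 133.8 CPM at v1 E14.5 (both batches), and at 92.5 and 77.2 CPM in the Fev-Cre library. With the 2 Ghrl-rich clusters left out, an alternative chosen after seeing the data, the Cdkn1a difference between alpha-like and Fev+-like cells went from -0.45 ± 0.53 (adjusted p = 0.583) to -1.29 (adjusted p = 0.00582), and that between alpha-like and beta-like cells from 1.82 to 0.95 (adjusted p = 0.00150). This drops the whole v1 E17.5 alpha-like sum, and without that library alone the differences were -1.13 (adjusted p = 0.00374) and 1.18, both called, so Ghrl content and that library cannot be told apart here.

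**Figure D4:**
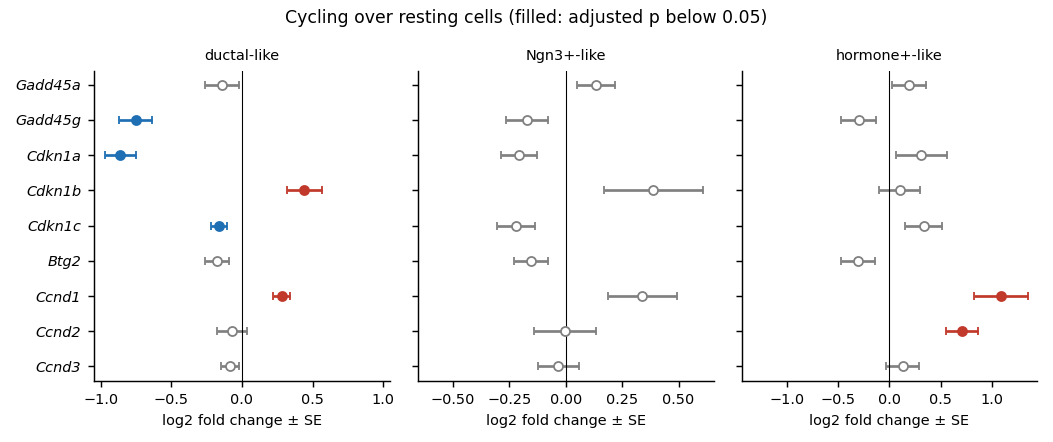
Log2 fold change ± SE (horizontal axes) of each gene (vertical axis) between cycling and resting cells of the same class, for ductal-like cells (8 libraries), Ngn3+-like cells (5 libraries) and hormone-expressing cells (4 libraries). Filled symbols passed an adjusted p of 0.05. In ductal-like cells Cdkn1a lies at -0.86 and Gadd45g at -0.75, and in hormone-expressing cells Ccnd1 lies at 1.09 and Ccnd2 at 0.71.

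Within ductal-like cells, 3 brakes were lower in cycling than in resting cells, and 1 was higher. Cdkn1a was at 38.9, 137 and 212 CPM (lowest, median and highest library) in cycling and 49.7, 285 and 406 CPM in resting cells, and was lower in 8 of 8 libraries although the ranges overlapped. The log2 difference was -0.86 ± 0.11 (adjusted p = 2.30e-07). Gadd45g was lower (-0.75 ± 0.12, adjusted p = 8.34e-06) in 7 of 8 libraries. Cdkn1b was higher in cycling cells (0.44 ± 0.13, adjusted p = 0.00610) in 5 of 8 libraries, and Ccnd1 was higher (0.28 ± 0.06, adjusted p = 0.000703) in 8 of 8. With these and Cdkn1c (-0.16 ± 0.06, adjusted p = 0.0300, higher in 4 and lower in 4 libraries), 5 of 9 members passed, against 38% of 8581 genes (18% higher and 20% lower). The Ccnd1 call depended on the phase list. With G2/M genes alone its difference was -0.06 (adjusted p = 0.394), while Ccnd2 came to -0.57 (adjusted p = 2.00e-05) and Ccnd3 to -0.20 (adjusted p = 0.00743). Without the block none of the 5 was called, and the Cdkn1c call was also lost with either chemistry alone, with DESeq2 (adjusted p = 0.0701) and without v1 E14.5 batch 1, without v2 E14.5 or without the Fev-Cre library, the last 3 with adjusted p from 0.0820 to 0.123.

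Among the other brakes 3 of 9 tested rose in cycling ductal-like cells and 1 fell. Cdkn2d was higher by 2.19, Rbl1, which encodes p107, by 1.48 and Fzr1 by 0.55 on the log2 scale, and Btg1 was at -0.34. Of 16 engine genes 12 rose, or 8 of 12 without those on the S and G2/M lists, and of 9 p53 targets 1 rose and 3 fell. Genes of the S and G2/M lists define the cycling call, so their rise is built in.

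Between cycling and resting Ngn3+-like cells none of the 9 members passed the test. Of 7558 genes 4.72% were called by edgeR (3.66% higher and 1.06% lower) and none was a member. The smallest p-values among the members were those of Cdkn1c (-0.22 ± 0.08), Cdkn1a (-0.21 ± 0.08), Ccnd1 (0.34 ± 0.15) and Btg2 (-0.15 ± 0.07). Their adjusted p ran from 0.174 to 0.327 (edgeR), and DESeq2 called 0 members. Cdkn1c was higher in 1 and lower in 4 of 5 libraries. Cdkn1a and Ccnd1 were each higher in 3 and lower in 2. Gadd45a was higher in cycling cells in 4 of 5 libraries, with a log2 difference of 0.13 ± 0.09 (adjusted p = 0.506). Without v1 E14.5 batch 1 it was called, at 0.25 (adjusted p = 0.00793), and without v2 E17.5 no member was. Btg2 was lower in cycling cells in 5 of 5 libraries. With G2/M genes alone Gadd45a (0.26, adjusted p = 0.00404), Cdkn1b (0.76, adjusted p = 0.0360) and Ccnd2 (-0.56, adjusted p = 0.0228) were called.

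In hormone-expressing cells 2 cyclins had higher levels in the few cycling cells. For Ccnd1 these levels are low. Thinned shares of all alpha-like (1.49% to 6.70%) and beta-like cells (0.667% to 3.23%) with a UMI lay within the erythroid-like range of 0% to 9.18%. That range pools libraries, so the Ccnd1 difference is given as one of counts, and whether it is one of expression was not settled. Ccnd1 was at 41.3 CPM in cycling and 21.2 CPM in resting cells of the Fev-Cre library, 45.4 and 12.9 CPM at v2 E12.5, 39.4 and 9.11 CPM at v2 E14.5, and 19.4 and 13.7 CPM at v2 E17.5. Ccnd2 in the same order was at 248 and 137 CPM, 348 and 331 CPM, 171 and 66.2 CPM, and 575 and 326 CPM. Both were higher in 4 of 4 libraries, with overlapping ranges. The differences were 1.09 ± 0.26 for Ccnd1 (adjusted p = 0.0304) and 0.71 ± 0.16 for Ccnd2 (adjusted p = 0.0183), and 2 of 9 members stood against 4.09% of 9220 genes (3.32% higher and 0.77% lower). These rest on 86, 29, 28 and 69 cycling cells. The mix of classes moved with the state, but not in 1 direction. Ccnd1 counts were higher in alpha-like than in beta-like cells in 5 of 6 libraries. Ccnd2 was higher in 6 of 6, but was not called (0.72 ± 0.29, adjusted p = 0.0870, edgeR). Alpha-like cells made up 60 of 86 cycling and 500 of 943 resting cells in the Fev-Cre library, and 33 of 69 and 415 of 1202 at v2 E17.5. At v2 E14.5 their part was smaller in cycling cells, with 7 of 28 against 243 of 470, and no class there had 20 cycling cells for a value of its own. Within alpha-like cells Ccnd1 was at 35.2 CPM in cycling and 27.7 CPM in resting cells of the Fev-Cre library, and at 35.1 and 29.3 CPM at v2 E17.5. Within beta-like cells it was at 55.2 and 13.3 CPM, and at 11.7 and 6.45 CPM. At v2 E12.5 the hormone-expressing cells were alpha-like cells alone, so the values given above are within 1 class. They were 45.4 and 12.9 CPM for Ccnd1, and 348 and 331 CPM, nearly equal, for Ccnd2. Values of Ccnd2 within a class are not given for the other libraries. The part of the mix in the pooled differences of Ccnd1 and Ccnd2 over the other libraries was not tested. The Ccnd1 call was lost without the Fev-Cre (1.22, adjusted p = 0.0858), v2 E12.5 (0.97, adjusted p = 0.151) or v2 E14.5 library (0.93, adjusted p = 0.0565), without cells near the cycling threshold (0.47, adjusted p = 0.479), with G2/M genes alone (0.58, adjusted p = 0.429) and without the block (1.20, adjusted p = 0.101). The Ccnd2 call was lost without the Fev-Cre library (0.68, adjusted p = 0.0840) and without the block (0.69). Without cells near the threshold Gadd45g was called too (-0.72, adjusted p = 0.0465). Without v2 E17.5, Cdkn1a (0.75, adjusted p = 0.000665) and Cdkn1c (0.53, adjusted p = 0.0320) were called as well. The v2 E14.5 cycling cells held 2248 CPM of Cdkn1a and include 11 epsilon-like cells among 28. Whether the cycling difference itself differed between hormone-expressing and ductal-like cells was tested by an interaction term, which called 0% of 12050 genes by edgeR (627 genes and, of the members, Ccnd1 at an unadjusted p under 0.05, and 16 genes by DESeq2). Only the library was blocked there, so the 2 states of a class were not paired. Class differences that varied between libraries entered the spread. For Cdkn1a the SE was 0.85, against 0.11 in the paired test of ductal-like cells (8 libraries) and 0.25 in that of hormone-expressing cells (4 libraries). The lack of edgeR calls therefore does not show that the cycling differences were alike.

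**Figure D5:**
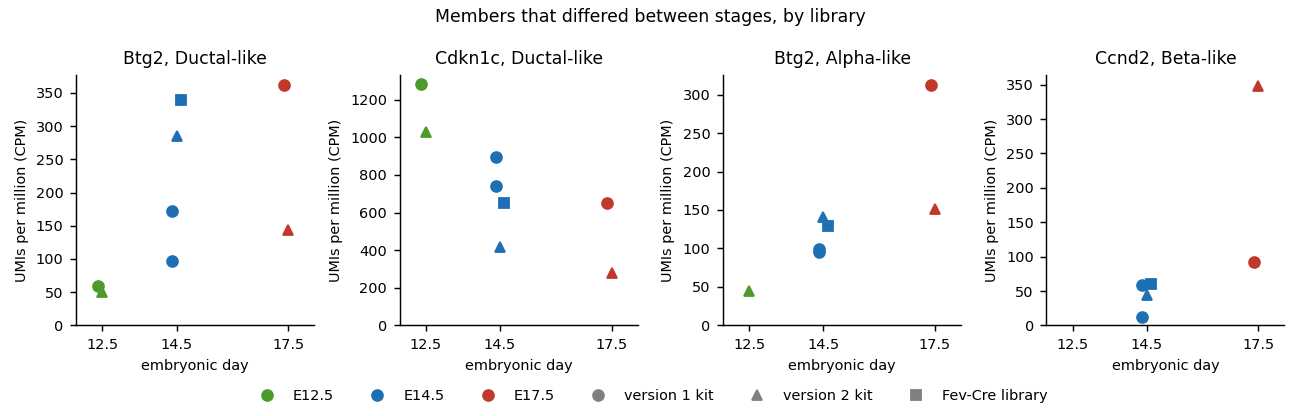
Level in CPM (vertical axes) by embryonic day (horizontal axes) of Btg2 and Cdkn1c in ductal-like cells, Btg2 in alpha-like cells and Ccnd2 in beta-like cells, 1 point per library (marker, chemistry). Ductal Btg2 starts at 49.8 and 58.6 CPM at E12.5 and stands at 143 and 362 CPM at E17.5, and beta Ccnd2 reaches 348 CPM in the v2 E17.5 library.

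Between stages few members changed, and the changes rested on few libraries. Haemoglobin transcripts also differed between stages. Over all barcodes they held 13.1% (v1) and 4.71% (v2) of UMIs at E12.5. At E14.5 they held 5.71% and 24.95% (v1 batches 1 and 2) and 2.12% (v2). At E17.5 they held 60.9% (v1) and 31.8% and 31.7% (v2 wells). The part of red cells in the changes was not tested. The ductal-like cycling share was 53.8% (v1) and 60.8% (v2) at E12.5, and 13.6% (v1) and 42.1% (v2) at E17.5. In ductal-like cells Btg2 was at 58.6 (v1) and 49.8 (v2) CPM at E12.5, at 172, 96.5 and 285 CPM at E14.5, and at 362 (v1) and 143 (v2) CPM at E17.5, without overlap between E12.5 and E17.5. It rose by 2.42 ± 0.57 on the log2 scale (adjusted p = 0.0266, kit as covariate). Cdkn1c was at 1284 and 1027 CPM at E12.5 and at 649.8 and 278 CPM at E17.5, and fell by 1.28 (SE 0.33, adjusted p = 0.0376). These 2 of 9 members stood against 6.02% of 10316 genes (4.25% higher and 1.77% lower). The Btg2 call was lost without v1 E17.5 (1.24, adjusted p = 0.0667) or v2 E12.5 (2.17, adjusted p = 0.261). The Cdkn1c call was lost without v2 E12.5 (-0.95, adjusted p = 0.419), v2 E17.5 (-0.95, adjusted p = 0.457) or v1 E14.5 batch 2 (-1.30, adjusted p = 0.0587). Without v1 E17.5, Cdkn1a (-2.23, adjusted p = 0.000133), Gadd45g (-1.50, adjusted p = 0.0307) and Ccnd1 (1.37, adjusted p = 0.0287) were called beside Cdkn1c. Summed immediate early and heat-shock transcripts moved with stage too, from 2026 to 2212 CPM at E12.5 to 2891 to 12792 CPM at E17.5 in ductal-like cells, and 7 of 14 of these genes rose. Their part in the rise of Btg2 was not tested.

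In alpha-like cells E12.5 was covered by 1 library, so E17.5 was compared with a single sum. The spread comes from the libraries of the other stages, and the lone sum is assumed to vary like them, so the p-values below have no replicate check at E12.5. Btg2 was at 44.5 CPM there and at 313 and 151 CPM at E17.5, a log2 difference of 2.25 ± 0.49 (adjusted p = 0.00927). Gadd45g was at 56.4 CPM and at 570.1 and 169 CPM, a difference of 2.08 ± 0.52 (adjusted p = 0.0276). These 2 of 9 members stood against 1.7% of 9723 genes (0.926% higher and 0.771% lower), and 8 of 14 immediate early and heat-shock genes rose beside them. The Gadd45g call was lost without v1 E17.5 (1.64, adjusted p = 0.0546), and both calls were lost with the Ghrl-rich clusters left out (1.78, adjusted p = 0.167 for Gadd45g and 1.88, adjusted p = 0.0827 for Btg2), which drops the whole v1 E17.5 sum and leaves 1 sum at each of the 2 stages. Cdkn1a was not called (-0.20 ± 0.81), and its direction turned with 1 library. It was lower at E17.5 without v1 E17.5 (-2.001, adjusted p = 0.00807) and higher without v2 E17.5 (2.26, adjusted p = 0.0192).

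In beta-like cells Ccnd2 was at 58.9, 11.6 and 44.6 CPM in the E14.5 Swiss Webster libraries and at 91.8 (v1) and 348 (v2) CPM at E17.5. It rose by 2.94 ± 0.51 on the log2 scale (adjusted p = 0.0287), 1 of 8 tested members against 0.617% of 5511 genes. The call was lost without v2 E14.5 (1.92, adjusted p = 0.496) and with DESeq2 (2.63, adjusted p = 0.282). Without v2 E17.5, Btg2 (2.12, adjusted p = 1.18e-05) and Gadd45g (1.85, adjusted p = 0.00103) were called.

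The genes most like each member were ranked by Pearson correlation of log2 CPM over 36 library-by-class sums (ductal-like, Ngn3+-like, Fev+-like, alpha-like and beta-like), among 9818 genes, as a description with no test, since sums share libraries and depth. For Gadd45a these were Plk3 (0.914), Btbd17 (0.911) and Hes6 (0.901), for Cdkn1a they were Neurog3 (0.796), Trp53inp1 (0.796) and Csnk1e (0.778), and for Gadd45g they were Rph3al (0.872), Tubb3 (0.863) and Tpst2 (0.843). Btbd17, Hes6 and Neurog3 are among the markers that named the Ngn3+-like class. For Btg2 they were Tmem33 (0.792), Vps37b (0.791) and Ubald2 (0.789), and for Cdkn1b Kif21a (0.772), Irf2 (0.762) and Rere (0.729). Cdkn1c was nearest to Nr2f6 (0.886), H19 (0.853), another imprinted gene of the same chromosome region, and Serpinh1 (0.85). Ccnd1 was nearest to Mgll (0.909), Ugt2b34 (0.905) and 1700011H14Rik (0.896), Ccnd2 to Tmem37 (0.765), Sept9 (0.759) and Utrn (0.757), and Ccnd3 to Gpc3 (0.906), H19 (0.874) and Serpinf1 (0.870). Among the 36 pairs of members, Ccnd3 and Cdkn1c had the highest correlation (0.812), then Ccnd1 with Ccnd2 (0.729), Ccnd1 with Ccnd3 (0.723), Gadd45a with Btg2 (0.70) and Gadd45a with Gadd45g (0.673), and Cdkn1b with Cdkn1c had the lowest (-0.708).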

How the data were processed

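Single-cell libraries were processed by the authors with Cell Ranger 1.1 (version 1) or 2.1 (version 2 and Fev-Cre) on mm10, per the submitters' processing notes, and the deposited values are raw UMI counts per gene and barcode. For Fev-Cre embryos the matrix with reporter sequences was used and the one without them was not used here. Members and gene lists were chosen with earlier results of these data known.

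Barcodes with 200 or more genes and genes in 3 or more cells were kept, leaving 57982 cells with 2309 to 13182 per library. Leiden clustering (resolution 1, 2000 variable genes, 20 components, 20 neighbours) was run per library, then among epithelial and endocrine cells, with every listed gene held out. Clusters were named from marker lists, and the naming thresholds were set after clusters were seen. They left 0% to 53.6% of endocrine cells in a library unnamed. Cells that held genes of 2 exclusive compartments, each at 30% or more of its usual share, were removed as doublets. Cells thinned to 2000 UMIs were called cycling above 10 (version 1) or 8 (version 2) UMIs of 43 S phase and 54 G2/M genes, by Otsu's threshold, and 23.8% and 27.6% of cells lay within 1.5-fold of it.

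Counts were summed per library and class where 20 or more cells were present, and tested with edgeR 4.0.16 (R 4.3.3, TMM, filterByExpr, quasi-likelihood F test, Benjamini-Hochberg over all genes tested, adjusted p of 0.05). This test keeps the larger of the F and the Poisson p-value for genes that vary less than counting allows. The 2 classes or states compared come from 1 suspension, so the library was the block, which pairs the sums by design. In the interaction the block was the library alone, and the 2 states of each class were not paired. Stage comparisons used the Swiss Webster libraries with kit as covariate. The scripts were tested on simulated data. Alternatives were DESeq2 1.42.0, no low-count filter, no TMM, each library left out, no block, each kit alone, thinned cells, doublets kept, resolution 2, clusters and tests on separate parts of the counts, other cycling calls, the Fev-Cre library in stage comparisons and, added after seeing the data, alpha-like clusters with Ghrl above 10000 CPM left out. Genes named are the members, up to 4 called genes with the smallest adjusted p per other list, and the 3 genes most like each member. Intervals and limits cover counting error only.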

Additional observations from a re-analysis of the deposited data

Results flagged for a closer look

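For each member and class with 4 to 10 libraries, the highest and lowest library were compared with the rest by Dixon's ratio at the 95% level. Of 54 groups 6 stood out, where the nominal rate is about 1 in 20. That rate assumes independent, normally spread values. The groups share the same libraries, which differ in stage and chemistry, so no excess over chance is drawn from the count. Btg2 was far above the other libraries at v1 E17.5 in 3 classes. It was at 1544.8 CPM in Ngn3+-like cells (next 868), at 313 CPM in alpha-like cells (next 151) and at 528 CPM in beta-like cells (next 190.5). Summed immediate early and heat-shock transcripts reached 9246, 6185 and 8457 CPM as the highest values of these classes, and their part in the Btg2 values was not tested. Cdkn1a in alpha-like cells was at 2249.6 CPM at v1 E17.5 (next 469.6, at v2 E12.5), in the cluster that held Ghrl at 36355 CPM. Ccnd1 in Ngn3+-like cells was at 120.2 CPM at v2 E17.5 (next 56.9), the sum that also held beta markers at 64161 CPM. Ccnd2 in beta-like cells was at 348 CPM at v2 E17.5 (next 91.8, at v1 E17.5).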

How the results depend on the processing

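Of 55 member calls, 28 held in each alternative in which the gene passed the filter on low counts, 27 were lost under 1 or more and 1 changed sign under 1 or more (ductal Ccnd1 between cycling and resting cells with the G2/M list alone, which was then not called). All 6 Ngn3+ versus ductal calls held under each alternative. Of 66 differences that did not pass, 30 passed somewhere. Causes were not tested.

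Members called. The member counts and gene counts of the alternatives, here and below, are given without the number of genes tested in each. They are thus not set against a background share, and no excess of members over other genes is drawn from them. With no filter on low counts 8 members differed between alpha-like and Fev+-like cells (5 in the chosen fit). In the same setting 2 differed between cycling and resting Ngn3+-like cells (0) and 2 between beta-like stages (1). With version 1 libraries alone the counts were 3 for alpha over Fev+, 2 for beta over Fev+ (4) and 3 for ductal cycling (5). Version 2 alone gave 1 for Ngn3+ cycling. Thinned cells gave 3 for alpha over Fev+ and 2 for beta over Fev+. The G2/M list alone gave 3 for Ngn3+ cycling and 1 for hormone cycling (2). The Fev-Cre library gave 1 for ductal stage (2) and 1 for alpha stage (2), and leaving out Ghrl-rich clusters 1 for alpha stage. DESeq2 gave 0 for beta stage. Leaving out 1 library in turn gave 4 to 8 (alpha over Fev+), 0 to 1 (Ngn3+ cycling), 0 to 4 (hormone cycling), 0 to 4 (ductal stage), 2 to 4 (alpha stage) and 1 to 3 (beta stage).

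The library was the block in each comparison of classes or states, and without the block or pairing the members called were 3 (alpha over Fev+), 2 (beta over Fev+), 3 (alpha against beta, 6 with it), 0 (ductal cycling) and 0 (hormone cycling). Without it the genes called were 3521 for Ngn3+ over ductal (5474 with it), 815 for Fev+ over Ngn3+ (1604), 395 for alpha over Fev+ (1346), 735 for beta over Fev+ (1955), 553 for alpha against beta (1822), 2475 and 695 for the first 2 steps in resting cells (4018 and 1392), 432 for ductal cycling (3257), 106 for Ngn3+ cycling (357) and 164 for hormone cycling (377).

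All genes called, in the same order of comparisons. Ngn3+ over ductal gave 2052 with version 1 alone and 3338 with thinned cells. Fev+ over Ngn3+ gave 3062 with no filter, 726 and 1045 with version 1 or 2 alone and 1052 thinned. Alpha over Fev+ gave 2156 with no filter, 360 and 621 with version 1 or 2 alone, 638 thinned, 615 on separate counts and 796 to 1491 with 1 library left out. Beta over Fev+ gave 795 and 952 with version 1 or 2 alone, 926 thinned and 942 on separate counts. Alpha against beta gave 347 with version 1 alone, 810 thinned, 1193 on separate counts and 1141 to 1932 with 1 library left out. In resting cells, Ngn3+ over ductal gave 1348 with version 1 alone, and Fev+ over Ngn3+ gave 2677 with no filter and 659 and 850 with version 1 or 2 alone. Ductal cycling gave 573 with version 1 alone. Ngn3+ cycling gave 234 with DESeq2, 573 with no filter and 590 without cells near the cycling cut. Hormone cycling gave 786 with no filter, 862 without cells near the cut and 228 to 456 with 1 library left out. The interaction gave 16 with DESeq2, 6 with no filter and 0 to 4 with 1 library left out. Ductal stage (621) gave 1076 with no filter and 192 to 1114 with 1 library left out. Alpha stage (165) gave 63 with DESeq2, 85 with the Fev-Cre library, 72 without Ghrl-rich clusters and 116 to 263 with 1 library left out. Beta stage (34) gave 188 with no filter, 67 with the Fev-Cre library and 9 to 200 with 1 library left out.

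Version 1 libraries alone could not be fitted for Ngn3+ or hormone cycling because too few had 20 cells per arm, and alpha stage could not be fitted without v2 E12.5, its single E12.5 library. Low sums limit Ccnd1, which is at 0 UMIs in v1 E17.5 delta-like cells, allowing up to 20.5 CPM.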
